A study of Mus musculus with 2 samples.

Results

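Peak regions that were higher in replicate 2 than in replicate 1 are described here for DNase-seq of the mouse adrenal gland. A shared region was a stretch covered by overlapping peaks of both replicates, joined at 1 bp of overlap or more. Of 48290 shared regions outside chromosome Y, 3368 had a greater maximal peak height in replicate 2, and these are called members. The members were selected on the peak heights themselves, so the heights and their ratio are given as a description and were not tested. The 3368 members made up 6.97% of all shared regions, and the other 44922 were the set they are compared with.

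The study mapped accessible chromatin in 1 group of 2 samples, biological replicates 1 and 2. Both came from adrenal tissue of B6CASTF1/J females, hybrids with one C57BL/6J and one CAST/EiJ parent, 10 days old, and each sample's label names 3 females. No treatment is labelled, and the labels name the same donor record for both samples. In bulk tissue, a larger share of nuclei of 1 cell type and a more open site within each nucleus cannot be told apart.

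DNase I cuts DNA where nucleosomes are displaced by bound proteins, so that promoters and enhancers in use appear as peaks of cuts. Most vertebrate promoters are rich in CpG dinucleotides and stay accessible in many tissues, whereas distal enhancers are accessible in a cell type dependent way. In the adrenal gland, the cortex makes steroid hormones under the nuclear receptor SF-1 (Nr5a1), chromaffin cells of the medulla make catecholamines, and a capsule of fibroblast-like cells with cortical progenitors surrounds both. Promoters of many genes of both tissues were open in these libraries. A shared region lay within 1 kb of a start for 14 of 19 steroidogenesis genes and 21 of 30 chromaffin genes. Over all protein-coding genes it did for 13932 of 21728, and whether the lists differ from that was not tested. For Nr5a1, the highest shared promoter region had a height of 3.24 in replicate 1 and 2.09 in replicate 2. For Chga, which encodes the granule protein chromogranin A, the heights were 2.20 and 1.83. Neither of these regions was a member.

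Sequences of 6 members are printed from the mm10 reference, plus strand, to show the kinds of DNA that the results below turn on. Capitals mark CpG dinucleotides in the first 5. The first was the highest member of all, chr17:39846781-39846920, in a ribosomal RNA related locus. The next pair had the largest ratios of replicate 2 over replicate 1 among higher members at promoters and at distal sites, chr9:3019101-3019207 and chr9:3002144-3002240. The following pair are CpG-dense members beside promoters of regulatory genes, chr7:70360821-70361080 near Nr2f2 and chr10:67535361-67535460 near Egr2. The last is the highest distal member outside repeated sequence with a match to the CTCF consensus, chr11:101814881-101815060, and its capitals mark that match. It was chosen after the matches had been counted.
Gm42418 locus: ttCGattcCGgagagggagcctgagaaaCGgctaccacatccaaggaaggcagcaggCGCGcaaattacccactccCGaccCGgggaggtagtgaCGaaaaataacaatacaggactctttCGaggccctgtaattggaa
Gm10719 locus: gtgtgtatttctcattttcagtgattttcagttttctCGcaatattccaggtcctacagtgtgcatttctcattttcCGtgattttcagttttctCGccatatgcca
Gm11168 locus: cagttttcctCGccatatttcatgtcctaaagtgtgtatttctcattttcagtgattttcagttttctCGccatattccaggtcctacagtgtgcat
Nr2f2 promoter side: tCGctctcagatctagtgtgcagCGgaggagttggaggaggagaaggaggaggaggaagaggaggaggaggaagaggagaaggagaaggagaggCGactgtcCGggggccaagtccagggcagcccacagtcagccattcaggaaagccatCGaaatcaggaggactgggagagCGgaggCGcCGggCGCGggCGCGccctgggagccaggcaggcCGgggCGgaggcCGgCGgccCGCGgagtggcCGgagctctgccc
Egr2 promoter side: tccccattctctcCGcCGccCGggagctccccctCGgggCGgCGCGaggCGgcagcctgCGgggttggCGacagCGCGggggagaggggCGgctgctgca
Distal site near Etv4: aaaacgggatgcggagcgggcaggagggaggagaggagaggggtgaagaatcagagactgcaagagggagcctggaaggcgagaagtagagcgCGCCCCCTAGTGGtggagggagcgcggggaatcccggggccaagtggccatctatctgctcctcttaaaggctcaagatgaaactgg

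Peak height is the deposited signal value of a peak, on a scale whose normalisation is not stated. Members were low peaks. The median height was 0.749 in replicate 1, against 0.880 in replicate 2. The corresponding medians over all shared regions were 1.86 and 1.14. The lower and upper quartiles of the members were 0.535 and 1.14 in replicate 1 and 0.620 and 1.30 in replicate 2. Over all shared regions replicate 1 was the higher one, by a median of 1.66-fold. Within the members, replicate 2 was higher by a median of 1.11-fold, a log2 ratio of 0.16, with a 95th percentile of 0.61 and a maximum of 2.60. Most members thus sat close to equality of the replicates. The count depends on the lists: the longer deposited peak lists gave 7383 members, and the shorter list of replicate 1 shortened to the length of replicate 2 gave 1244. Just inside the threshold, a region in an intron near 4930562F17Rik had heights of 1.53081 and 1.53088, and a region near Zfp663 had 1.10298 and 1.10323. A region near Bace2 fell just outside, with 1.277 in both replicates at the precision printed.

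The number of members fell steeply with any margin. An excess of replicate 2 of at least 10% was met by 1829 regions (3.79% of all shared regions), and one of at least 25% by 737 (1.53%). An excess of at least 50% was met by 188 regions (0.389%), and one of 100% by 18 (0.0373%). Deposited heights were whole multiples of 1 step per replicate, 0.00668 and 0.00620. Were a step 1 counted tag, which no source states, a median member would rest on 112 and 142 tags, and its log2 ratio would have a counting error of 0.18.

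**Figure D1:**
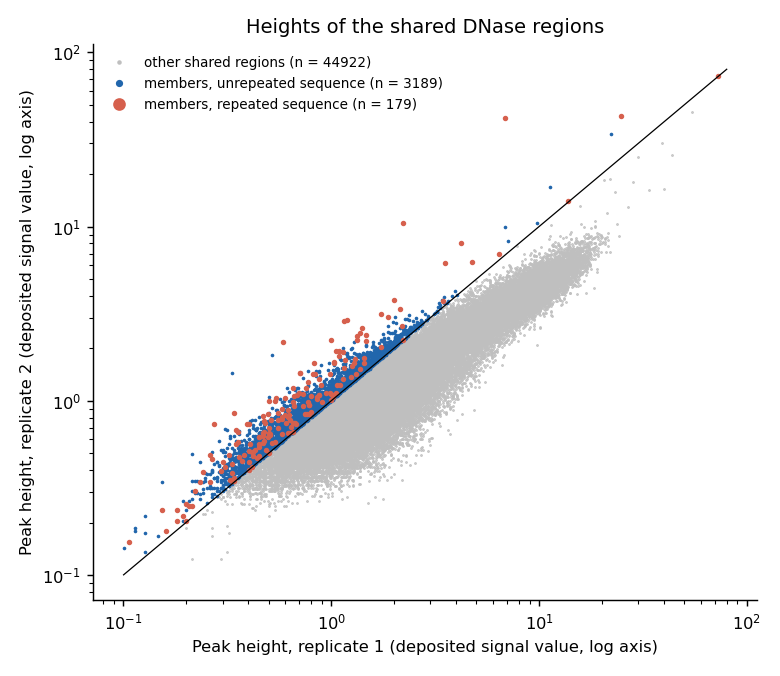
Peak height in replicate 1 (x axis) and replicate 2 (y axis) of every shared region, deposited signal values on log axes, with the line of equality. The 3368 members lie above the line, mostly at heights near 1 and close to it, and the 179 members in repeated sequence (red) include 10 of the 18 points with an excess of at least 100%.

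Membership depended on height. Of the 9658 shared regions in the lowest quintile of mean height (mean of both replicates, up to 0.840), 1752 or 18.1% were members. The share was 8.27% in the next quintile, 5.95% in the middle one and 2.27% in the fourth. In the highest quintile, with mean heights of 3.56 and above, 23 of 9658 regions were members (0.238%). Other shared regions were therefore compared with the members at the same mean height, in 20 height bins holding about equal numbers of members, weighted to the members' numbers per bin. Intervals given with the members' shares are exact binomial 95% intervals, and those of medians are rank intervals. They cover counting error over regions only, since there was 1 library per replicate.

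Members lay at promoters more often than other shared regions of their height. Within 1 kb of an annotated transcript start lay 1751 members, 52.0% (95% interval 50.3 to 53.7), beside 27.7% of other shared regions of the same mean height. The members' share was the larger in 19 of the 20 height bins. As a share of the regions themselves, 8.08% of the 21675 shared promoter regions and 6.08% of the 26615 distal ones were members. Introns held 19.3% of members beside 33.1% at the same height, and intergenic sequence 24.4% beside 34.9%. Exons outside the promoter window held 4.31% of members and 4.24% of the others. Sites more than 10 kb from any start made up 25.2% of members and 43.3% of the others.

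Much of the promoter excess came from shoulders, regions beside a higher one. Of the 1751 promoter members, 1058 (60.4%) had a higher shared region within 1 kb, beside 39.9% of other promoter regions of the same height. Among distal members the share was 14.8% beside 8.64%. Only 40.5% of promoter members covered a start, beside 45.1% of the others. With all shared regions that have a higher neighbour within 1 kb left out, a choice made after seeing the data, 33.5% of the 2070 remaining members lay at promoters beside 20.9% at the same height. The excess was then 12.6 percentage points in place of 24.3.

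**Figure D2:**
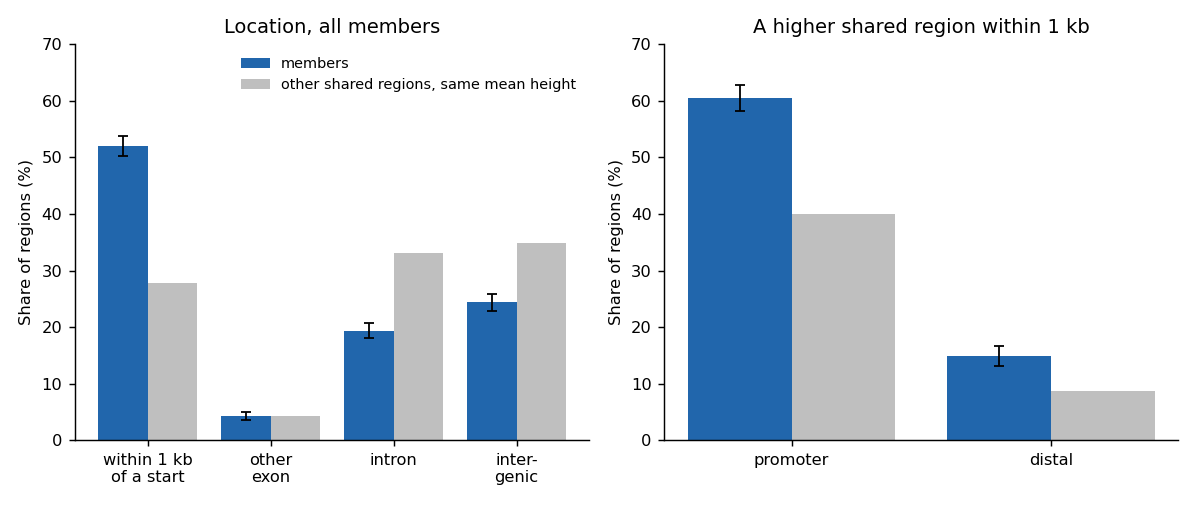
Left, share of regions (%) within 1 kb of a start, in other exons, in introns and in intergenic sequence. Right, share with a higher shared region within 1 kb, for promoter and distal regions. Blue bars are members with exact binomial 95% intervals and grey bars are other shared regions of the same mean height. Promoter members stood at 52.0% beside 27.7%, and 60.4% of them had a higher neighbour beside 39.9%.

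CpG content set members apart from other regions of the same height. The median ratio of observed to expected CpG was 0.52 in members (interval 0.50 to 0.54) and 0.28 in the others. Promoter members carried a median of 31 CpG sites at a ratio of 0.75, beside 11 sites at a ratio of 0.52. Their median GC content was 66.5%, beside 57.7%. Distal members differed less but in the same direction, with a median ratio of 0.28 (0.26 to 0.29) beside 0.24. Their median GC content was 53.1% (52.8 to 53.6) beside 51.7%. For both measures the distal members' median was the larger in 18 of 20 height bins. All other promoter regions, whatever their height, had a median ratio of 0.76, 25 CpG sites and a GC content of 64.1%.

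Members were more frequent at high CpG content within each quintile of height but the highest. In the lowest quintile, 53.8% of promoter regions with a CpG ratio above 0.8 were members (270 of 502), beside 16.5% of those with a ratio up to 0.2 (52 of 316). In the middle quintile these shares were 21.7% (180 of 831) and 3.22% (11 of 342). Distal regions of the lowest quintile ran from 10.8% at a CpG ratio up to 0.2 to 37.3% above 0.8. The highest quintile did not show this order. There, 7 of 5615 promoter regions above 0.8 were members (0.125%), beside 1 of 428 at 0.4 to 0.6 (0.234%). Of its distal regions, 2 of 222 above 0.8 were members (0.901%), beside 2 of 173 up to 0.2 (1.16%). The ratio of the replicates also differed by GC content across all shared regions. In the lowest quintile of height, the log2 ratio (replicate 2 over 1) had a median of -0.57 in the decile of regions with the lowest GC content and 0.06 in the decile with the highest. In the middle quintile it was -0.75 and -0.28. In the highest quintile it was -0.75 over the 41 regions of the lowest decile and -0.95 over the 2407 of the highest. Decile 7 lay lower than both, at -1.11, so the ratio did not run in 1 direction with GC content there. GC content and CpG content rise together, and which of them the replicate difference follows, or whether either plays a part in it, was not tested.

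**Figure D3:**
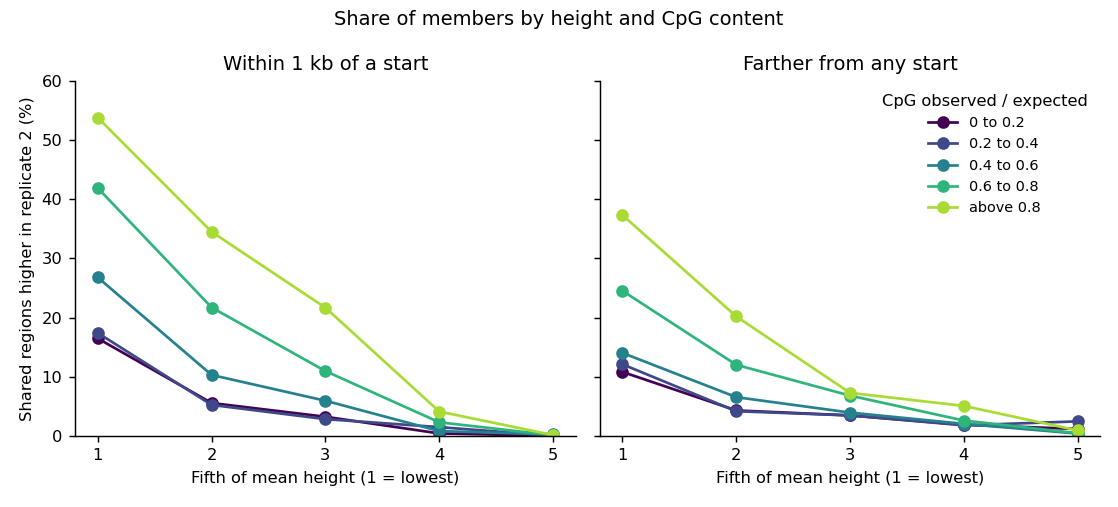
Share of shared regions higher in replicate 2 (%) by quintile of mean height, for promoter regions (left) and distal regions (right), with lines for 5 classes of observed over expected CpG. Below the highest quintile the class above 0.8 has the greatest share in both panels, at 53.8% of promoter and 37.3% of distal regions in the lowest quintile. In the highest quintile the shares are small and the order of the classes is lost.

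Widths differed by location. Over all members the median width of the shared region was 223.5 bp, and 220 bp at the same height, a difference within the rank interval of 220 to 240 bp. Its sign turned among the 188 members with a ratio of at least 1.5, at 202.5 bp beside 212 bp. Promoter members were wider, at 380 bp (369 to 400) beside 280 bp. Distal members had a median of 193 bp beside 200 bp, a difference within the rank interval of 187 to 200 bp. The part of the region covered by peaks differed between the replicates: replicate 1 covered a median of 88.9% of a member and replicate 2 96.0%, beside 99.4% and 79.9% in the others. Widths were called on the same reads as the heights, so these values are not independent of the choice of members.

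Footprints are short protected stretches within a peak that the authors called at a p-value of 0.01. They come from the same libraries as the heights. In replicate 1, 73.4% of members held a footprint (71.9 to 74.9), beside 91.3% of other regions of the same height. In replicate 2 the shares were 84.5% (83.3 to 85.7) and 89.9%. The gap in replicate 1 was widest at promoters beside a higher region. There, 36.9% of 1058 members held a footprint in replicate 1, beside 55.9% at the same height. Distal members stood at 89.1% (87.5 to 90.6) beside 94.7%. The 693 promoter members without a higher neighbour stood at 92.5% beside 96.8%. In replicate 2 those 693 members stood at 97.0% beside 93.9%, and distal members at 94.7% (93.5 to 95.7) beside 92.9%. The 1058 promoter members beside a higher region stood at 60.9% (57.9 to 63.8) beside 58.8%. In replicate 2 members thus stood above the others within each of these groups, and below them when the groups were pooled. Over all members, the sign of the difference in replicate 2 was not stable: the longer peak lists gave 78.3% of members beside 72.8%. Without any region that has a higher neighbour, members stood at 93.9% beside 96.7% in replicate 1, and at 97.3% beside 94.7% in replicate 2.

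Distal members carried more footprinted sequence in replicate 2 than in replicate 1. A mean of 39.1 bp per distal member lay in footprints of replicate 2, beside 28.9 bp at the same height, and the members' mean was the larger in 20 of 20 height bins. In replicate 1 the means were 30.3 and 33.2 bp. By the rule, members were higher in replicate 2 and lower in replicate 1 than others of their mean height. Footprints come from the same libraries, so neither these means nor the count of bins is independent of the choice of members. Deposited FDR values at or below 0.001 covered 87.3% of a member in replicate 1 and 91.6% in replicate 2, beside 95.8% and 76.2%. The peak lists have the same FDR threshold, so these shares are not independent of the choice of members either.

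Short sequences bound by known factors were counted within 75 bp of the region centre on both strands. At distal members, the consensus of CTCF, the zinc finger protein that anchors chromatin loops, was matched in 100 of 1617 regions, 6.18% (5.06 to 7.47). The share was 3.44% at the same height and 5.08% over all distal shared regions. Leaving out repeated sequence gave 6.60% beside 3.44%, and leaving out regions with a higher neighbour 7.04% beside 3.71%. The median height of these members was 0.919 in replicate 1 and 0.976 in replicate 2. Other distal regions with a match had medians of 1.99 and 1.34. The site near Etv4 printed above had heights of 2.52 and 2.53, with 2 footprints in replicate 1 and 4 in replicate 2.

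AP-1, the dimer of Fos and Jun proteins that opens many enhancers, showed the reverse. Its sequence TGANTCA was found in 2.60% of distal members (1.88 to 3.50), beside 7.92% at the same height and 8.10% over all distal shared regions. At promoters the shares were 1.66%, 4.04% and 2.59%. The C/EBP sequence TTGCNNAA was found in 5.94% of distal members beside 8.98% at the same height and 8.16% over all distal regions. The SF-1 sequence TCAAGGTCA was found in 3 of 1617 distal members, 0.186% (0.0383 to 0.541), beside 0.613% at the same height and 0.552% over all distal regions. It overlaps the half-site of other nuclear receptors. With 3 matches, its share is known only within that interval.

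At promoters, GGGCGG, bound by SP and KLF factors, was found in 38.1% of members (35.8 to 40.4), beside 26.4% at the same height and 44.6% over all shared promoter regions. CCAAT, bound by NF-Y close to many starts, was found in 9.82% (8.47 to 11.3), beside 16.7% and 20.2%. The ETS sequence CCGGAAG was found in 1.77% beside 2.95% and 7.72%. The CACGTG E-box was found in 2.46% beside 4.47% and 5.09%, and the CAGCTG E-box in 9.71% beside 13.0% and 10.0%. GGGCGG holds a CpG, so its share moves with the CpG content given above. AGATAA, bound by GATA factors, was found at distal members in 3.96% beside 4.83%, which lies within the members' interval of 3.06 to 5.03. In all, 22 sequences were searched. At distal members the interval lay above the share at the same height for 2 of them (CTCF and GGGCGG), below it for 5 (AP-1, C/EBP, SF-1, CCAAT and CAGCTG) and around it for 15. At promoters it lay above for 1, below for 12 and around it for 9. A match is a run of letters, and it does not show that the factor was bound.

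**Figure D4:**
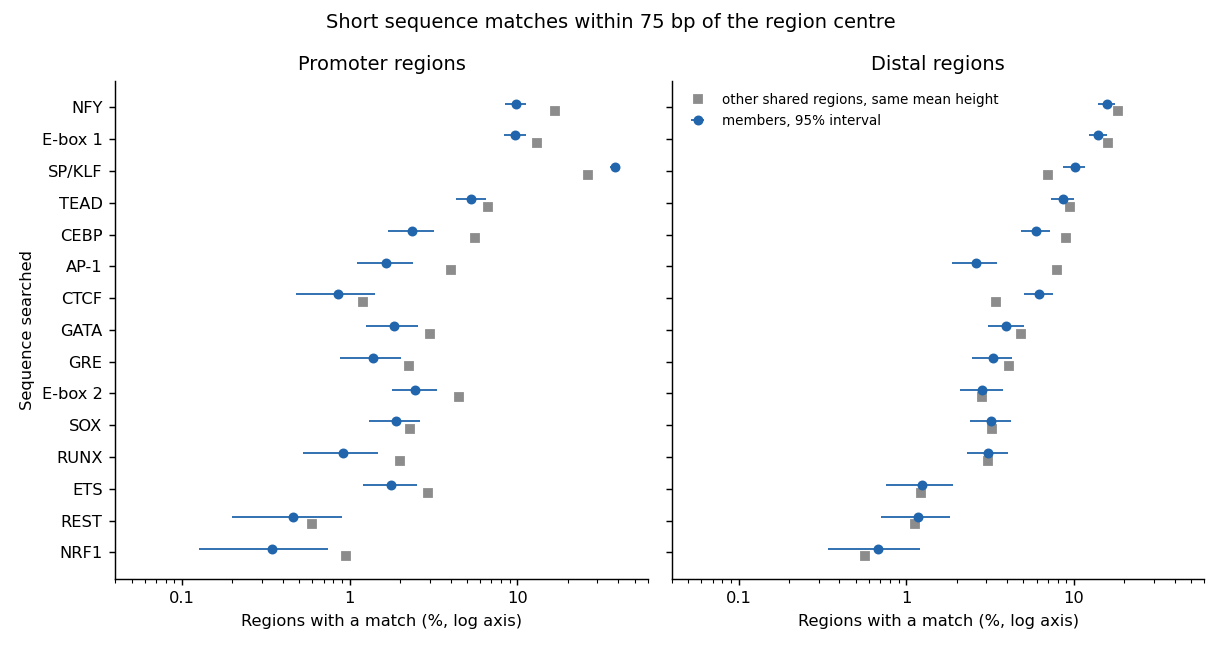
Share of regions (%, log axis) with a match to each sequence within 75 bp of the centre, for promoter regions (left) and distal regions (right). Blue points are members with exact binomial 95% intervals, grey squares are other shared regions of the same mean height, E-box 1 is CAGCTG and E-box 2 is CACGTG. Among distal regions CTCF lies at 6.18% beside 3.44% and AP-1 at 2.60% beside 7.92%.

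Repeated sequence was over-represented among the members. A region was counted as repeated when at least 50% of its 31-base words occurred more than once in the primary mm10 assembly. Of 461 repeated shared regions, 179 were members (38.8%), beside 6.67% of the other shared regions. Among members 5.31% were repeated (4.58 to 6.13), beside 1.41% at the same height. The share grew with the ratio: 108 of the 737 members with an excess of at least 25% were repeated, 61 of 188 at 50% and 10 of 18 at 100%. By height, 31 of the 521 members at or above the median mean height of all shared regions were repeated. The counts were 19 of 195 members at a mean height of at least 2, 9 of 16 at 4 and 4 of 8 at 8. Of all shared regions that high, 0.508%, 0.401% and 0.996% were repeated. The counts at 4 and 8 rest on few members. How reads with several possible origins were placed is not given in the sources used here, and its part in these heights was not tested.

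The 10 highest members included 5 in repeated sequence. The highest, 38 bp from the start of the long noncoding RNA Gm42418 and within the RefSeq pseudogene Rn18s-rs5, had heights of 72.9 and 73.0. Its replicates thus differed by a ratio of 1.001. A region 58 bp from the microRNA gene Gm23935, within the gene Zc3h7a, had heights of 24.9 in replicate 1 and 43.0 in replicate 2. Gm10060, a processed pseudogene, had 13.8 and 14.1.

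Most of the other high members lay in unrepeated sequence. A region at chr15:99735641-99735920, exonic, with Cox14 as the nearest start at 10023 bp, and within the ceramide synthase gene Cers5, had heights of 22.2 and 34.0. A region in an exon of the ubiquitin receptor gene Ubqln1 (chr13:58177601-58177820) had 11.3 and 16.9. Both stood far above the usual height of a member, and none of their words was repeated. A region 11112 bp from Hic2, a zinc finger repressor gene, had 9.80 and 10.4, and one in an intron of Aida had 7.11 and 8.31. An intronic region of Jarid2, which encodes a partner of Polycomb repressive complex 2, had 6.40 and 6.94, and 57.1% of its words were repeated.

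Among members at or above the median height of all shared regions, those with the largest ratios lay mostly in repeated sequence, 8 of the first 10 at promoters and 10 of the first 10 at distal sites. The largest ratio of all was at chr9:3019101-3019207, 348 bp from the start of the predicted gene Gm10719. Its height was 6.89 in replicate 1 and 41.8 in replicate 2, a ratio of 6.07, and 98.1% of it was masked as a repeat in the reference. Next came a region 726 bp from Gm11168, with 2.23 and 10.4. The exceptions at promoters were Chadl, a gene of a chondroadherin-like matrix protein, with 1.14 and 2.01, and Tmem30a, which encodes a subunit of phospholipid flippases, with 1.29 and 2.18. The distal group included a masked intronic region of the protocadherin gene Pcdh9, with 1.41 and 2.62, and a pair of masked regions of the T cell receptor alpha locus near Trav22, with 1.14 and 1.92 and with 1.88 and 3.04.

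Some members stood in runs. No matching count over other shared regions is given, and whether members group more than those do was not tested. With members joined where they lay within 50 kb of each other, 2379 of 2804 runs held a single member and 12 held at least 5. In 5 of these 12 every shared region of the run was a member, 45 members in all. These runs were picked after their values were seen. The longest covered 54.5 kb of chromosome 11 (3127101 to 3181580) over the pseudogene Pisd-ps1 and Sfi1, the gene of a centrin-binding protein of the spindle poles. All 17 of its shared regions were higher in replicate 2, by 1.09-fold to 1.92-fold. Heights ran from 0.595 to 3.52 in replicate 1 and from 0.744 to 6.18 in replicate 2. A run of 7 at the Duxf3 locus on chromosome 10 (58224124 to 58239640) had ratios of 1.34 to 2.24. Duxf3 encodes the double homeobox factor that acts in early embryos and lies in an array of copies.

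A run of 6 at the start of chromosome 9 (3002144 to 3029540), at Gm11168, Gm10719 and Gm10717, had ratios of 1.77 to 6.07. Its words occurred a median of 33 times in the assembly. On chromosome 8, runs of 10 (20378484 to 20424440, at 2610005L07Rik) and of 5 (20589350 to 20597620, at Gm21112) had median ratios of 1.33 and 1.87. In each of these 5 runs most members were repeated sequence: 12 of 17 at Sfi1, 4 of 5 at Gm21112 and 6 of 7 at Duxf3. So were all 6 on chromosome 9 and all 10 at 2610005L07Rik.

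**Figure D5:**
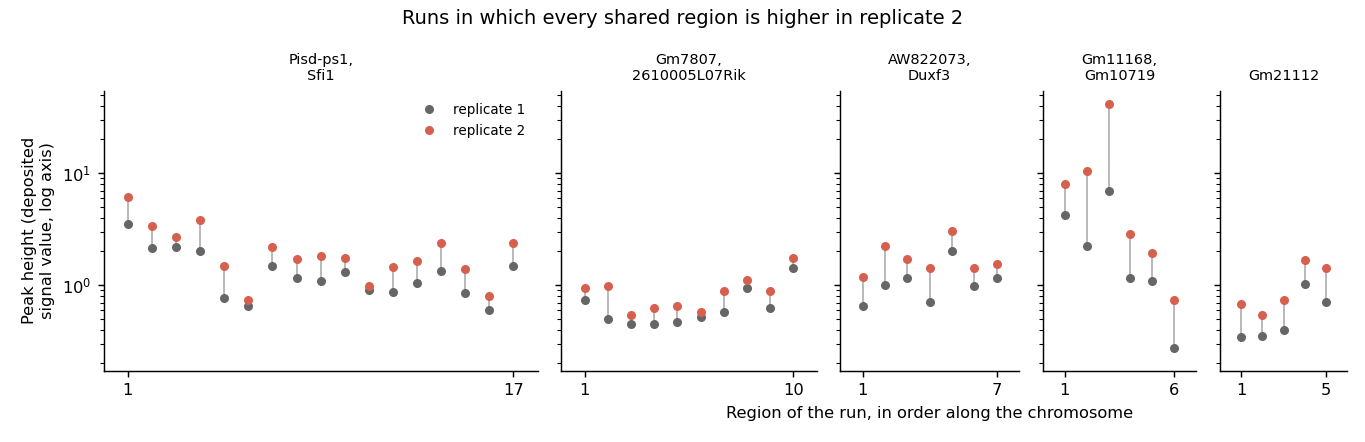
Peak heights (deposited signal values, log axis) of replicate 1 (grey) and replicate 2 (red) for each shared region, in order along the chromosome, in the 5 runs of at least 5 members without any other shared region. Replicate 2 lies above replicate 1 at every region, by the widest gap (6.89 and 41.8) at Gm10719.

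Among the shorter runs without repeated members, a few were picked as examples after their values were seen, and others lay at genes of many kinds. All 4 shared regions at Ntn1, which encodes the axon guidance factor netrin-1, were members, with ratios of 1.06 to 1.28. So were all 4 at Mdga1, a gene of a neural adhesion protein, with ratios of 1.18 to 1.83. At Irx5 4 of 5 shared regions were members and at Foxd3 4 of 5. Within the Hoxa cluster 5 of 20 were, with ratios of 1.08 to 1.31.

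The promoters of protein-coding genes give a background for the gene lists. Of 13932 such genes with a shared promoter region, 1494 (10.7%) had a member at the promoter. For 442 of them (3.17%), the highest promoter region itself was a member. Within 50 kb of the most 5' start, 4398 of 18414 genes with a shared region had a member (23.9%). Over all 13932 genes the medians for the highest promoter region were 5.94 and 3.10. In every list the median ratio of that region favoured replicate 1, from 1.26-fold for capsule and fibroblast genes to 2.47-fold for cholesterol genes. The lists differ in height and CpG content, and the counts below were not adjusted for either.

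Steroidogenesis genes had no member at a promoter, in 0 of 14 with a shared region there. The highest promoter regions favoured replicate 1, with a median ratio of 1.98, beside 1.90 over all genes. At Star, which encodes the carrier of cholesterol into mitochondria, the heights were 3.58 in replicate 1 and 1.246 in replicate 2. At Cyp11a1, the side-chain cleavage enzyme gene, they were 3.74 and 1.87. Within 50 kb, 1 of 19 genes had a member (5.26%), beside 23.9% of all protein-coding genes. This depended on the window: within 100 kb 6 of 19 did (31.6%), beside 36.8%. Cholesterol genes had a member at 1 of 22 promoters. It lay at Srebf2, the gene of a master regulator of sterol synthesis, with 1.40 and 1.52. The highest promoter region of that gene had 12.9 and 4.47, so the member was a low region at a gene whose highest promoter region was higher in replicate 1.

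Chromaffin genes had members at 4 of 21 promoters, all of them genes of transcription factors, and in 0 of the 21 was the member the highest promoter region. At Phox2a, the homeobox factor of noradrenergic cells, the member had heights of 0.896 and 1.09 and the highest promoter region 1.72 and 1.49. The member of Insm1, a zinc finger factor of neuroendocrine cells, was 2163 bp wide with 0.822 and 0.936. Gata2 had a member of 0.689 and 0.713, and its highest promoter region had 5.39 and 2.78. Gata3 had a member of 0.555 and 0.682, and its highest promoter region had 7.08 and 3.18. Regions at Dbh and Chgb, which encode a catecholamine enzyme and a granule protein, were higher in replicate 1, with 1.12 and 0.570 and with 8.31 and 4.17.

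Endothelial genes had members at 4 of 10 promoters, and in all 4 the member was the highest promoter region. At Egfl7, a secreted vascular factor, the heights were 1.69 and 1.79. At Cldn5, the tight junction protein claudin-5, they were 0.735 and 0.868, and at Erg, an ETS factor, 0.628 and 0.694. At Sox17, 3 promoter members ran from 0.461 to 0.862 in replicate 1 and from 0.564 to 0.923 in replicate 2. The ratios at these genes lay between 1.06 and 1.26. Over all 10 genes, however, the highest promoter regions favoured replicate 1, with a median ratio of 1.35, beside 1.90 over all genes. The median height of the highest promoter region in this list was 1.44 in replicate 1, against 5.94 over all genes.

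Capsule and fibroblast genes had members at 4 of 13 promoters. At Col1a2, a chain of type I collagen, the single promoter region had 0.869 and 0.917. At Gli1, a Hedgehog effector that marks capsular cells, the member had 1.76 and 1.98 and the highest region 3.88 and 1.63. Tbx18 had a member of 1.18 and 1.26, and Nr2f2, the gene of COUP-TFII, the printed member of 1.10 and 1.15. The Schwann cell list had members at 2 of 11 promoters, Foxd3 (0.541 and 0.545 at the higher of its pair) and Egr2. The neuron list had 1 of 9, the RNA-binding protein gene Elavl4 (1.66 and 1.79). The adipocyte list had 1 of 13, the beta-3 adrenergic receptor gene Adrb3 (0.842 and 1.09). Immune genes had 0 of 2.

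Developmental transcription factor genes had members at 10 of 30 promoters, and Hox genes at 9 of 25. The member was the highest promoter region at 2 of 30 and 4 of 25. At Foxc1 the member had heights of 1.28 and 1.63 and the highest promoter region 7.94 and 2.83. En2 had a pair of members, of 1.06 and 1.13 and of 0.896 and 0.930. Irx5 had 0.668 and 0.899. Among Hox genes, one region covering starts of Hoxd3 and Hoxd4 had 1.81 and 1.98, and was the only shared promoter region of each. Hoxd1 had 0.789 and 0.985, and Hoxa2 1.29 and 1.39. Of the 142 shared regions within 50 kb of the developmental factors, 27 were members (19.0%), and of the 95 near Hox genes 13 (13.7%), beside 7.07% near all protein-coding genes. Neighbouring Hox genes share regions, so these genes are not separate observations.

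Immediate early genes had members at 5 of 20 promoters, and none was the highest region there. At Jun, a subunit of AP-1, the member had 1.61 and 1.68 and the highest region 15.7 and 5.45. At Nr4a2, an orphan nuclear receptor gene, the values were 1.84 and 2.06 beside 6.37 and 3.44, and at Klf4 0.882 and 1.03 beside 9.71 and 4.28. Each of these genes thus had a high promoter region that was higher in replicate 1 and a low one that was higher in replicate 2. Egr2 had 2 promoter members, and the printed one had 0.548 and 0.583.

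Lists of widely active genes had few members at promoters. Ribosomal protein genes had members at 2 of 77 promoters (Rpl36 and Rps14), histone cluster genes at 0 of 54 and respiratory chain genes at 4 of 93. The highest promoter regions favoured replicate 1 in all 3 lists, with median ratios of 2.04, 2.07 and 2.01. Within 50 kb, 13 of 79 ribosomal protein genes (16.5%), 2 of 65 histone genes (3.08%) and 25 of 98 respiratory chain genes (25.5%) had a member, beside 23.9% of all protein-coding genes. Within 100 kb these shares were 34.2%, 22.4% and 37.8%, beside 36.8%. At Ndufb4, a complex I subunit gene, the member had 1.10 and 1.44 and the highest region 9.92 and 3.53. The 313 numbered zinc finger genes with a shared promoter region had a member in 25 cases (7.99%), among them Zfp821 (1.47 and 2.08) and Zfp959 (3.46 and 3.75).

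By chromosome, 112 members lay on X, where 10.0% of 1119 shared regions were members. Other shared regions of the same mean height, weighted to the members' number, would place 115 on X. On the autosomes the share ran from 5.38% on chromosome 16 to 8.02% on chromosome 18. Starts of processed pseudogenes were the nearest start of 226 shared promoter regions, of which 43 were members (19.0%), beside 7.84% for protein-coding starts.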

How the data were processed

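DNase-seq peaks, footprints and FDR values of 2 samples were used as the authors deposited them. Per the file listing, all were made on the mouse build mm10, each from 1 sample. Which aligner and callers made them is not given in the sources used here. The deposited peak height is a signal with no stated normalisation. The deposited FDR values are listed under 0.05, and the footprints were called at a p-value of 0.01. The shorter of 2 peak lists was used (98813 and 55135 peaks, FDR 0.001). Read depth was not used here beyond counts of peaks.

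Shared regions, height bins, words and matches were computed in Python 3 with pandas, numpy, pysam and bedtools. Genes came from GENCODE release M21 and letters from the RefSeq copy of mm10. The joining and matching steps were tested on simulated data. The members and the 16 gene lists were chosen with earlier results of these data known. Regions were named by rule: the 10 highest members, the 10 promoter and 10 distal members of largest ratio at or above the median height, up to 4 promoter members per list, highest first, and those beside the threshold. Further genes and the runs were named after their values were seen. No test was run, since there was 1 group and the heights chose the members. The biological replicates' labels share 1 donor record, so the difference of the 2 samples has no replicate check. Alternatives covered lists, overlap, margins, matching and annotation.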

Additional observations from a re-analysis of the deposited data

How the results depend on the processing

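No replicate could be left out, since a member needs both. No paired analysis was possible because there was 1 group. Differences below are members minus other shared regions of the same mean height, in percentage points for shares, and the causes of their changes were not tested. The promoter excess (24.3) and the CpG excess (0.24) kept their sign under every alternative run. The alternatives that left out repeated sequence or regions beside a higher one were chosen after seeing the data. Motif shares were repeated only for CTCF.

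The number of members was 7383 with the longer peak lists, 1244 with equal list lengths, 737, 188 and 18 at margins of 25%, 50% and 100%, 2070 without regions beside a higher one, and 24145 after replicate 1 was divided by the median ratio, which by construction takes about 1 side of the median. The promoter excess was 21.4 with longer lists, 19.1 at a margin of 50%, 21.9 for regions of largest ratio within their height class, 22.4 within 500 bp and 12.6 without regions beside a higher one. The CpG excess was 0.14, 0.20, 0.28 and 0.10 under the same settings other than the 500 bp window.

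The footprint difference in replicate 1 (-17.9) was -21.2 at a margin of 25%, -15.5 for the largest ratio within the height class and -2.87 without regions beside a higher one. That in replicate 2 (-5.35) was -2.44 at a margin of 25% and changed sign to 5.58 with longer lists, 0.30 at a margin of 50% and 2.64 without regions beside a higher one. The width difference (3.5 bp) was 16 with 50% overlap, 20 for the largest ratio within the height class, 17 without soft-masked regions, 17 without repeated sequence and -9.5 at a margin of 50%. The share of genes with a member within 50 kb (23.9%) was 16.2% within 25 kb, 36.8% within 100 kb and 10.7% at promoters alone. The other 41 values for these results moved by less than their counting interval or, for counts, by less than 1.5 times. Heights are signals of unstated scale, so their precision at low peaks is not known.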

Other observations

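Chromosome Y was outside the regions described. It held 9 shared regions, although both samples are labelled female, and 4 of the 9 were higher in replicate 2. The highest, at 90744501 to 90744860 of chromosome Y, had heights of 2.39 in replicate 1 and 5.91 in replicate 2. The other 3 that were higher in replicate 2 had heights of up to 0.321 and 0.397.

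At St3gal4, the gene of a sialyltransferase, 7 of 10 shared regions within 6.93 kb of chromosome 9 were members at very low heights, from 0.10 to 0.201 in replicate 1 and from 0.136 to 0.236 in replicate 2. None of the 7 lay in repeated sequence. The lowest height of any member, 0.10 in replicate 1, was among them.

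Instead of the raw order of heights, the same number of regions can be taken by the largest ratio within 50 narrow height classes. Of the 3368 members, 2460 (73.0%) were in that set. Its median mean height was 1.18, beside 0.816 for the members, and in 908 of its regions replicate 1 was still the higher one.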
